A study of Mus musculus with 6 samples.

Results

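The aminoacyl-tRNA synthetases are the enzymes that join each amino acid to its tRNA. They were described as 1 family of 36 genes in dorsal root ganglia of mice, the clusters of sensory neurons and glia beside the spinal cord. The 36 genes are 16 for mitochondrial and 20 for cytosolic enzymes. They were taken up because Lars2, the mitochondrial leucyl-tRNA synthetase, had the lowest difference between dt27J and WT ganglia of the probes past the threshold used below. The remaining 35 were included by name, whatever their values. Every non-control probe whose RefSeq transcript belongs to one of them was used, which gave 57 of 41174 probes. These 57 probes cover 35 genes, since no probe was matched to Cars2.

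Mice of the dt27J line are mutant for Dst, which encodes the cytoskeletal linker dystonin; mice that lack it develop a sensory neuropathy. The groups were 3 dt27J mice and 3 wild-type (WT) littermate controls, all of the C57BL/6 background at postnatal day 4, an age the series calls pre-phenotype. Total RNA of each animal's ganglia was labelled and hybridised to 1 single-colour Agilent array, and the animals came from 2 litters. The labels do not state which part of Dst the allele alters. They carry 2 dates: dt27J 1, dt27J 2, WT 1 and WT 2 have the first date, and dt27J 3 and WT 3 the second. Slide and scan follow this date exactly, and the sources do not state whether it also separates the litters.

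A synthetase activates its amino acid with ATP and transfers it to the matching tRNA, which then carries it to the ribosome. Mitochondria translate their own small genome with a separate set of synthetases, which are encoded in the nucleus, made in the cytosol and imported. The 2 sets mostly come from different genes, but mouse Gars and Kars serve both compartments. Several cytosolic synthetases are held together in a multisynthetase complex by scaffold proteins. In humans, dominant variants of several cytosolic synthetases cause Charcot-Marie-Tooth disease, a neuropathy of motor and sensory axons. Uncharged tRNA activates the kinase GCN2 (mouse Eif2ak4), and the transcription factor ATF4 that is made in response raises many cytosolic synthetase transcripts.

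Levels below are log2 of the scanner's processed signal minus the 75th percentile of that array, so that 0 is the 75th percentile. Differences are dt27J minus WT on this log2 scale with their standard errors (SE), from a limma fit with the label date as a block. Adjusted p-values are by the Benjamini-Hochberg method over 26248 tested probes, with a threshold of 0.05. The 75th percentile lay at a signal of 369.5 to 580, and each array had 63.1% to 71.5% of its probes well above background. The 3 Dst probes were lower in dt27J ganglia by fitted values of -2.68 (SE 0.26, adjusted p = 0.0341), -2.42 and -2.46. The second and the third of these probes were well above background on 2 of 3 dt27J arrays, so their values include a reading at background. Of all tested probes, 838 passed the threshold (3.19%), 344 higher (1.31%) and 494 lower (1.88%) in dt27J ganglia. This split moved to 457 higher and 382 lower when arrays were scaled to their medians. The calls rest on few arrays: without dt27J 1, WT 1 or WT 2 the count over all probes was 0, 1 and 0, so nearly every call named below was lost there. Without dt27J 2 it was 168.

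The Lars2 promoter is shown because the family was chosen on this gene. It is the stretch of 250 bases before the annotated start, chr9:123366677-123366926 on the plus strand of GRCm38.p6 in the RefSeq promoter table, 59.2% of it G or C.
Lars2: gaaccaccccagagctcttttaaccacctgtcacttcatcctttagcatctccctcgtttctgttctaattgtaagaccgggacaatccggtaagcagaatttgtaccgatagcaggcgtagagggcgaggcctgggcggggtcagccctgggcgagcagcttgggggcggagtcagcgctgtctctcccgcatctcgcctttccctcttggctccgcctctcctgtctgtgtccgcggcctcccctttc

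Lars2, which charges mitochondrial leucine tRNAs, was far lower in dt27J than in WT ganglia. Its single probe had levels of 4.25, 6.35 and 3.91 on the dt27J arrays and of 9.24, 9.77 and 10.14 on the WT arrays. The groups did not overlap, and dt27J 2 was the highest of the mutant arrays. The processed signals were 10100, 30200 and 8710 on the dt27J arrays, against 294000, 427000 and 575000 on the WT arrays. No spot was saturated. The scanner took the reading from its low-gain scan, scaled up, on dt27J 2 and all 3 WT arrays, and from its standard scan on dt27J 1 and dt27J 3. The mean level was 4.84 ± 1.32 in dt27J and 9.72 ± 0.45 in WT ganglia (SD, n = 3 each), a difference of -4.88 (SE 0.63), or 29.5-fold lower.

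Since this difference chose the family, it is given without a test. It was -4.21 between the arrays of the first date and -6.23 between those of the second. Leaving out 1 array at a time gave -5.68 to -4.21. In the authors' deposited table, which is centred on each probe's median, Lars2 stood at -3.48, -1.54 and -3.75 on the dt27J arrays and at 1.54, 1.84 and 1.84 on the WT arrays.

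Rn28s1, the 28S ribosomal RNA, was also low in dt27J ganglia. It had levels of -6.80, -2.45 and -4.01 in dt27J and 0.08, 0.33 and 1.11 in WT ganglia. All dt27J arrays lay below all WT arrays. The probe cleared the background limit on 2 of the 3 dt27J arrays and on all WT arrays. Its difference of -4.92 thus includes a reading not well above background, and it is given as a description with no test.

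A non-coding RefSeq accession, NR_003278, which the gene table used here does not name, was picked out after its values were seen. Its brighter probe had levels of 3.01, 5.99 and 4.77 in dt27J and 7.95, 8.53 and 9.71 in WT ganglia. It fell by 4.14 on the log2 scale (SE 0.73, limma adjusted p = 0.0472). The call was lost without dt27J 1, without WT 1 and without WT 2, where the adjusted p was 0.177, 0.248 and 0.16; it was also lost without the date block (0.0608), with the replicate block (0.098), with normexp background correction (0.0598) and with no filter on dim probes (0.106). Over its alternatives the adjusted p ran between 0.00926 and 0.248. The dimmer probe of NR_003278 had levels of -2.70, 1.12 and -3.67 in dt27J and 3.20, 2.98 and 2.27 in WT ganglia, with an adjusted p of 0.0535. On Lars2, Rn28s1 and both NR_003278 probes, dt27J 2 was the highest mutant array, and no dt27J array reached the level of any WT array. The part of ribosomal RNA in the Lars2 values was not tested, and probe sequences were not used here.

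**Figure D1:**
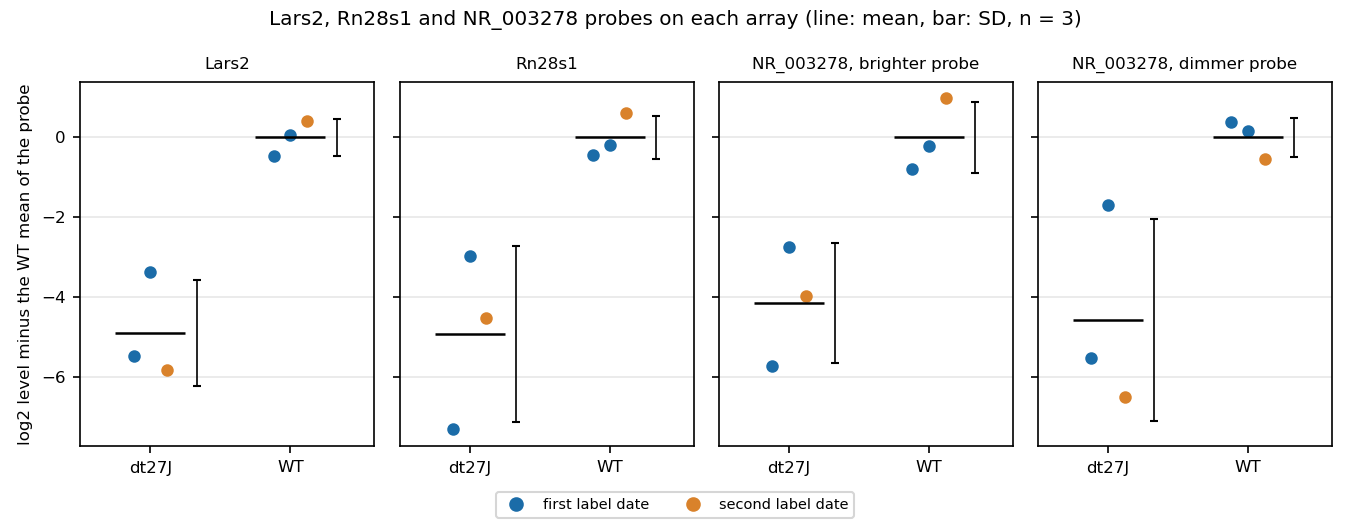
Level of Lars2, Rn28s1 and the 2 probes of NR_003278 on each array, as log2 level minus the WT mean of that probe, for 3 dt27J arrays and 3 WT arrays. Points are arrays coloured by label date, lines are group means and bars are SD; on every panel dt27J 2, the uppermost mutant point, lies below all WT points.

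No other synthetase had a difference of that size. Of the other 54 tested probes, which stand for 34 genes, none passed the threshold in either direction by limma, against 3.19% of all tested probes. At an unadjusted p under 0.05 there were 18 (33.3%), against 27.7% of all probes. The dt27J and WT arrays did not overlap on 18 of the 54 probes, against 28.8% of all tested probes. Of these, 10 (18.5%) were lower on every dt27J array, against 16.0% of all, and 8 (14.8%) were higher, against 12.8%. These shares lie near the background. The median size of the difference was 0.33 over the 54 probes and 0.37 over all tested probes, and the largest was 1.25. By its brightest probe, each of 25 of the 34 genes differed by less than 0.5.

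Arrays of the second date carried weight in this count. Without dt27J 3, or without WT 3, the fit rests on the first date alone, and 10 of the 54 probes passed (18.5%). In the same fit 25.9% of all probes passed. The 10 were probes of Tars and Dars, which were higher, and of Tars2, Aars, Farsa, Hars, Wars, Yars and Vars (both its probes), which were lower in dt27J ganglia.

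The 14 mitochondrial synthetases other than Lars2 had a median difference of -0.23, with a range of -0.65 to 0.35. Of these, 10 were negative and 4 positive, and none passed the threshold. Hars2 turned positive with the authors' values (0.044) and with normexp background correction (0.0094). Wars2 turned positive (0.104) and Iars2 and Rars2 negative (-0.018 and -0.014) with the first date alone, and Wars2 was positive without dt27J 1 too (0.067). The 20 cytosolic genes had a median of -0.091, with a range of -0.80 to 0.96, 14 negative and 6 positive, and under median scaling 4 of the cytosolic genes near 0 changed sign. The median over 13675 named genes was -0.031. Without Lars2 the mitochondrial minus cytosolic median was -0.14, as a description with no test. On the single arrays each gene was set against its mean over the WT arrays. The mitochondrial median was then -0.23, -0.12 and -0.27 in dt27J and 0.00024, 0.19 and -0.19 in WT ganglia. WT 3 therefore lay below dt27J 2.

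**Figure D2:**
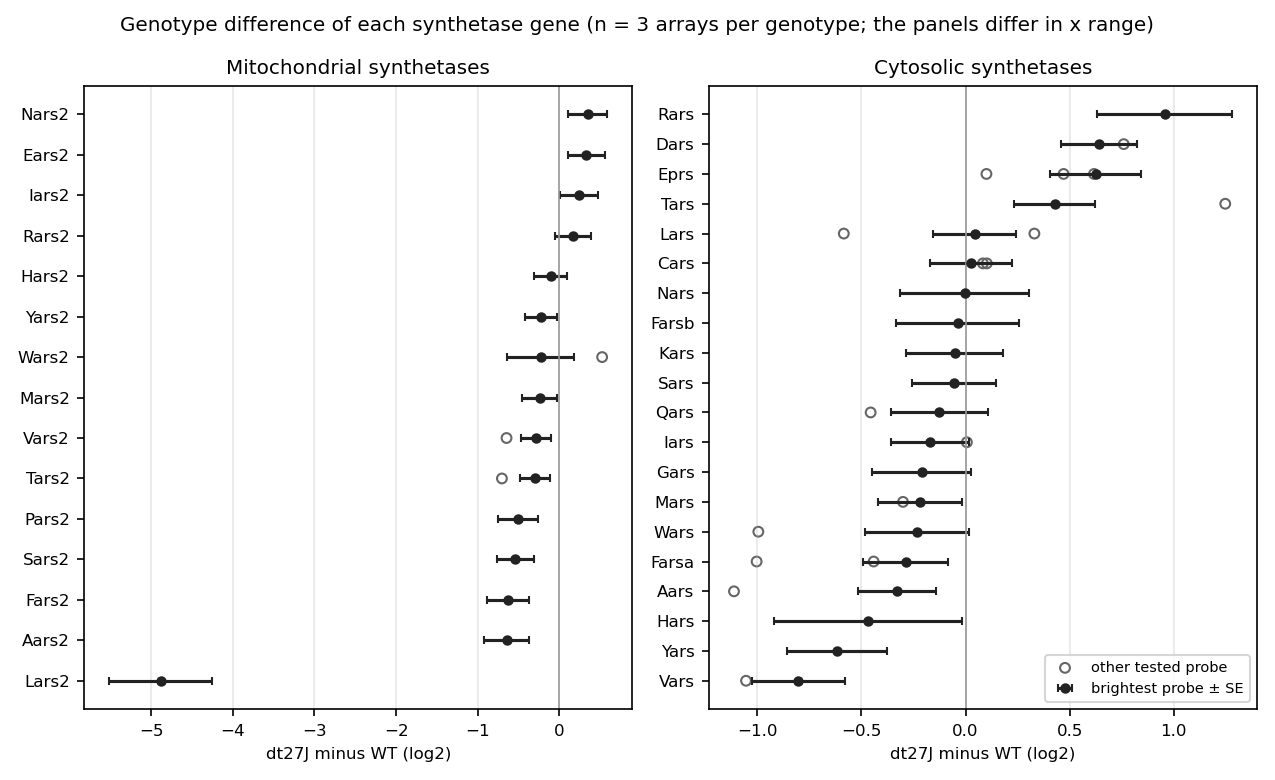
Genotype difference, dt27J minus WT in log2 units, of each mitochondrial (left) and cytosolic (right) synthetase gene; filled points are the brightest probe of a gene with its SE (n = 3 arrays per genotype) and open points its other tested probes. Lars2 stands at -4.88, while the other brightest probes lie between -0.80 and 0.96; the panels differ in their x range.

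Among the mitochondrial enzymes the lowest difference after Lars2 was that of Aars2, the alanyl-tRNA synthetase. It had levels of 1.06, 1.23 and 0.20 in dt27J and 1.44, 1.41 and 1.58 in WT ganglia, a difference of -0.65 (SE 0.27, adjusted p = 0.18 by limma). All dt27J arrays lay below all WT arrays, and dt27J 3 was farthest. Sars2, for serine, had -0.24, -0.17 and -0.66 in dt27J against -0.05, 0.39 and 0.20 in WT ganglia, with a difference of -0.54 (SE 0.22, adjusted p = 0.178). Fars2, for phenylalanine, differed by -0.63 and Pars2, for proline, by -0.50, and on both the groups overlapped.

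The remaining mitochondrial genes differed by less. Tars2, for threonine, gave -0.30 by its brightest probe and -0.70 by the other (SE 0.22, adjusted p = 0.103). Vars2, for valine, likewise gave -0.29 and -0.65. The brightest probes of Mars2, Wars2, Yars2 and Hars2, for methionine, tryptophan, tyrosine and histidine, lay between -0.24 and -0.10. The second Wars2 probe pointed the other way, at 0.53, with every dt27J array above every WT array. The 4 positive genes were Nars2 (0.35), Ears2 (0.33), Iars2 (0.24) and Rars2 (0.17), for asparagine, glutamate, isoleucine and arginine. A further probe each of Wars2 and Nars2 was too dim to be tested.

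Lars, the cytosolic partner of Lars2, had no such difference. Its brightest probe had levels of 4.72, 4.69 and 4.25 in dt27J and 4.68, 4.41 and 4.43 in WT ganglia. The mean was 4.55 ± 0.27 in dt27J and 4.51 ± 0.15 in WT ganglia (SD, n = 3 each), a difference of 0.04 with a 95% interval of -0.43 to 0.52. The other 2 Lars probes gave 0.33 and -0.58, with intervals that include 0.

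Of the cytosolic genes, Tars, for threonine, came closest to the threshold on the higher side. Its dimmer probe had levels of -0.06, -0.84 and -0.48 in dt27J and -1.66, -1.67 and -1.78 in WT ganglia. The difference was 1.25 (SE 0.25, adjusted p = 0.0514), and within the first and second dates it was 1.22 and 1.30. That probe passed under median scaling (adjusted p = 0.049), quantile normalization (0.0489), the authors' values (0.0431) and a filter that kept probes well above background on all arrays (0.049). It also passed with the first date alone, and over its 15 alternatives the adjusted p ran between 0.0319 and 0.248. The brightest Tars probe gave 3.98, 3.92 and 3.90 in dt27J against 3.52, 3.31 and 3.68 in WT ganglia, a smaller difference of 0.43 (adjusted p = 0.209). The 2 probes agree in sign and not in size.

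Dars, Eprs and Rars were also higher on every dt27J array by their brightest probes, and all 3 belong to the multisynthetase complex. Dars, for aspartate, had 2.08, 2.06 and 1.92 in dt27J and 1.50, 1.50 and 1.14 in WT ganglia (0.64, SE 0.18, adjusted p = 0.0865). The second Dars probe gave 0.76 (adjusted p = 0.249) with overlap of the groups, 1.28 on the first date and -0.28 on the second. Eprs, the joint enzyme for glutamate and proline, gave 0.63 by its brightest probe (SE 0.22, adjusted p = 0.128) and 0.62, 0.47 and 0.10 by the others. The first 3 of these showed no overlap of the groups. Rars, for arginine, was dim, at -2.82, -3.50 and -2.12 in dt27J and -3.70, -3.70 and -3.90 in WT ganglia (0.96, SE 0.32, adjusted p = 0.121). Before scaling, its signal on dt27J 2 (32.7) was below those of the WT arrays (37.2, 37.5 and 34). The lack of overlap for Rars thus rests on the scaling. The same holds for the first 3 Eprs probes, for the brightest probes of Tars, Yars and Vars, and for the second Wars2 probe.

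The 8 enzyme genes of the complex had a median of -0.0047, with 4 positive and 4 negative and none past the threshold. The other 5, besides Dars, Eprs and Rars, were Lars (0.04), Kars (-0.05), Qars (-0.13), Iars (-0.17) and Mars (-0.22). The scaffold genes Aimp1, Aimp2 and Eef1e1 differed by 0.25, -0.29 and -0.08, and none of the 3 passed.

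On the lower side, Farsa, the alpha subunit of the phenylalanine enzyme, had levels of -1.59, -1.51 and -0.92 in dt27J and -0.59, -0.15 and -0.26 in WT ganglia on its dimmest probe. The groups did not overlap, and the difference was -1.003 (SE 0.23, adjusted p = 0.0582). It passed with the authors' values, where it was -0.89 (adjusted p = 0.0441), and with the first date alone; over its alternatives the adjusted p ran between 0.0191 and 0.248. The other 2 Farsa probes gave -0.44 and -0.29. Farsb, the beta subunit, differed by -0.04, with a 95% interval of -0.74 to 0.66.

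Vars, for valine, had 2 probes that pointed the same way. The brightest gave -0.73, -0.62 and -0.08 in dt27J and -0.07, 0.49 and 0.57 in WT ganglia. The difference was -0.80 (SE 0.22, adjusted p = 0.0813), and the highest dt27J array lay just under the lowest WT array. The other probe gave -1.05 (adjusted p = 0.0744). Cars, Nars and Sars, for cysteine, asparagine and serine, lay between -0.06 and 0.03 by their brightest probes.

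All 7 synthetases linked to human Charcot-Marie-Tooth disease had a negative difference by the brightest probe, with Kars turning to 0.02 under median scaling, 0.059 without dt27J 2 and 0.12 without WT 2. Their median was -0.23, and none passed the threshold. With the first date alone Wars was positive (0.068), and with the second alone Hars, Gars and Kars were, so on neither date were all 7 negative. They were Yars (-0.62), Hars (-0.47), Aars (-0.33), Wars (-0.23), Mars (-0.22), Gars (-0.21) and Kars (-0.05), and 14 of all 20 cytosolic genes were negative too. Yars, for tyrosine, had 1.43, 1.55 and 2.09 in dt27J and 2.23, 2.51 and 2.18 in WT ganglia, without overlap (SE 0.24, adjusted p = 0.159). Gars, for glycine, had 0.13, -0.18 and 0.66 in dt27J and 0.29, 0.54 and 0.42 in WT ganglia, with overlap.

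Hars, for histidine, went in opposite directions on the 2 dates. It had 1.94 and 1.71 in dt27J against 3.03 and 3.07 in WT ganglia on the first date, and 2.55 in dt27J against 1.51 in WT ganglia on the second. The differences were -1.22 and 1.04, and the interaction had a limma adjusted p of 0.0518, the smallest in the family. Aars, for alanine, was lower on every dt27J array by its brightest probe. That probe had 4.13, 4.02 and 3.94 in dt27J and 4.30, 4.36 and 4.42 in WT ganglia (adjusted p = 0.293). Its other probe gave -1.11 with overlap, and -1.74 and 0.14 within the dates. Wars, for tryptophan, gave -0.23 by its brightest probe and -0.995 by a much dimmer one (SE 0.26, adjusted p = 0.0755).

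**Figure D3:**
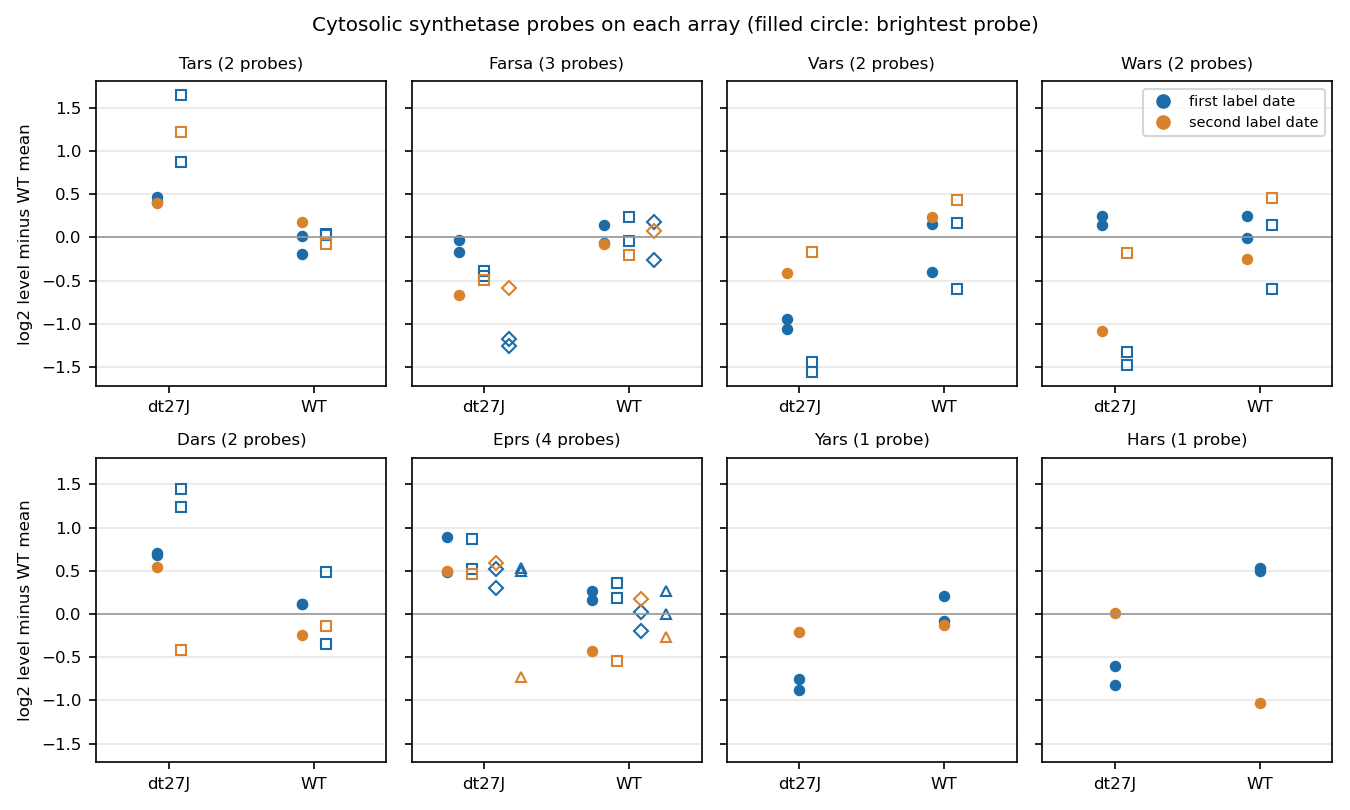
Level of every tested probe of 8 cytosolic synthetases on each array, as log2 level minus the WT mean of that probe, with dt27J arrays at the left and WT arrays at the right of each panel. Filled circles are the brightest probe, other symbols the other probes, and colour is the label date; both Tars probes lie higher on every dt27J array, the means of both Vars probes are lower in dt27J ganglia, and the Hars arrays of the 2 dates lie in opposite order.

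Probes of 1 gene often differed in size. Of 15 genes with several tested probes, 12 had all of them on 1 side of 0. The exceptions were Lars, Iars and Wars2. Which transcript forms the probes reach was not examined.

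The dates can be compared for the whole family, since both genotypes are on each. No synthetase probe passed the threshold for the date effect, for which 28 of all probes passed (0.107%), and 8 had an unadjusted p under 0.05 (15.3% of all probes did). None passed for the interaction of genotype and date, for which 218 of all probes passed (0.831%), and 13 had an unadjusted p under 0.05 (27.5% of all probes did). Of the 34 genes other than Lars2, 19 (55.9%) had the same sign of difference on both dates, against 56.8% of all tested probes. The mitochondrial median was -0.27 on the first and -0.32 on the second date, and the cytosolic median -0.13 and -0.0049. Within a date there were 2 arrays per genotype on the first and 1 on the second, so that values of the second date have no replicate.

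**Figure D4:**
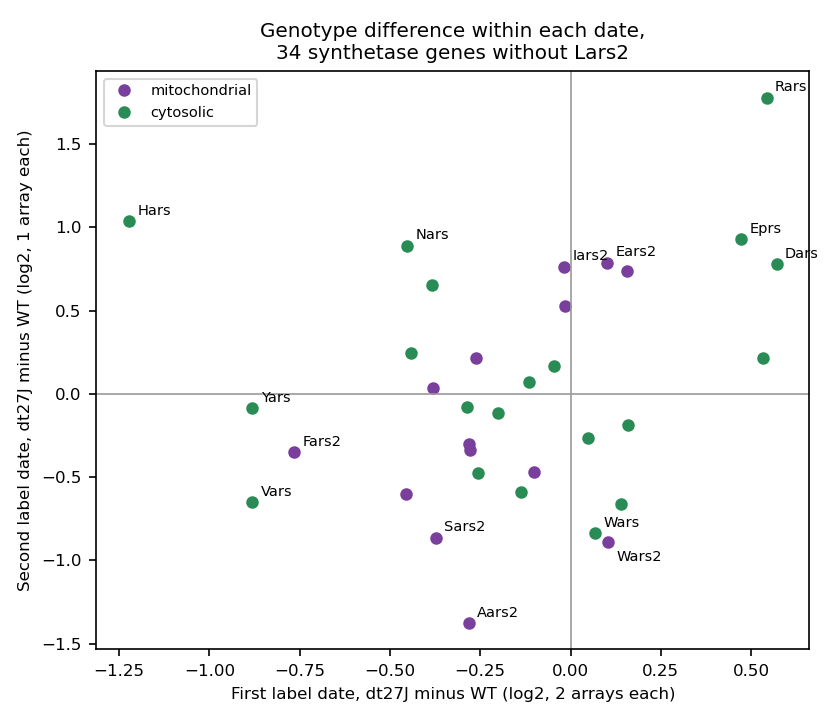
Genotype difference (dt27J minus WT, log2) within the first date (x axis, 2 arrays per genotype) and the second date (y axis, 1 array per genotype) for 34 synthetase genes without Lars2. Each point is the brightest probe of a gene, coloured by class; 19 genes lie in the quadrants where both dates have the same sign, and Hars stands at -1.22 and 1.04.

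The other genes of mitochondrial protein synthesis are read against all named genes, of which 2.87% passed by the brightest probe, 1.35% higher and 1.52% lower. None of 11 genes of mitochondrial tRNA maturation passed (median 0.17), and none of 10 mitochondrial translation factors (median 0.074). Of 78 mitochondrial ribosomal protein genes, 1 passed, Mrps35, which was higher in dt27J ganglia by 1.01 (SE 0.19, adjusted p = 0.0476). Their median was -0.022, near that of all named genes, but the 2 dates went in opposite directions. It was 0.19 on the first and -0.44 on the second date, against 0.028 and -0.15 for all named genes.

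Transcripts known to respond to uncharged tRNA were read for the cytosolic enzymes. Of 23 genes of the ATF4 response 1 passed, Atf3, a stress-induced transcription factor, which was higher in dt27J ganglia by 1.56 (SE 0.19, adjusted p = 0.0377). Among all named genes 1.35% passed as higher. The list had a median of 0.18, with 14 positive and 9 negative. Its median was 0.26 on the first and -0.097 on the second date. Asns, the asparagine synthetase and a standard ATF4 target, differed by -0.48, Atf4 by 0.19, Trib3 by -0.39 and Psat1, of serine synthesis, by 0.77 (adjusted p = 0.0781). None of 6 genes of the kinases that phosphorylate eIF2 and their cofactors passed. Eif2ak4, the GCN2 kinase, differed by 0.18.

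Stretches of 3 cytosolic promoters are shown because they hold the C/EBP-ATF element, to which ATF4 binds, and 1 of them belongs to Tars. Capitals mark the match, and each is read on the gene's strand in GRCm38.p6 from the RefSeq table: Aars at chr8:111033704-111033763 (plus), Gars at chr6:55037945-55038000 (plus) and Tars at chr15:11399659-11399699 (minus).
Aars: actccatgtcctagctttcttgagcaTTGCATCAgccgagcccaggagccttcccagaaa
Gars: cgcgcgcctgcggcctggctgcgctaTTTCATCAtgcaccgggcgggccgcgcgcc
Tars: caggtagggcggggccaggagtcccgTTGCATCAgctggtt

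Promoters were found for 27 members, 14 mitochondrial and 13 cytosolic, and the 250 bases before the start were searched on both strands. The letters TGATGNAA of the C/EBP-ATF element were found in 3 of 13 cytosolic and 0 of 14 mitochondrial promoters, against 3.91% of 27025 genes. All 3 matches are on the reverse strand, and they begin 112 (Aars), 30 (Gars) and 15 (Tars) bases before the start. The brightest probes of these 3 genes differed by -0.33, -0.21 and 0.43, so genes with the match lay on both sides of 0. The ETS core CCGGAAG was found in 3 of 14 mitochondrial promoters (Cars2, Mars2 and Sars2) and in 4 of 13 cytosolic ones (Farsa, Gars, Mars and Sars), against 7.83% of genes. The NRF1 element was found in none of the 27, against 1.12% of genes. The Lars2 stretch printed above holds none of the 3 motifs.

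The cell makeup of the samples was read beside these values, since in a whole tissue fewer cells of a type and less RNA per cell cannot be told apart. All 8 sensory neuron markers were well above background on all arrays. Their summed level, relative to the 75th percentile, was 569 to 730 in dt27J and 747 to 856 in WT ganglia. Of 5 Schwann cell markers none passed, with summed levels of 359 to 434 in dt27J and 345 to 504 in WT ganglia.

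Markers of tissue that adjoins the ganglia also differed. All 8 skeletal muscle markers had a positive difference, with a median of 1.65. Of these, 3 passed the threshold, Tcap, Mb and Tnnt3, at 2.43, 3.26 and 1.84 on the log2 scale. Among all named genes 1.35% passed as higher. The summed level of the 8 markers was 41.8 to 75.5 in dt27J and 13.6 to 40.1 in WT ganglia, with 40.1 on WT 3. Their median difference was 2.25 on the first and 0.40 on the second date, on which Acta1, Mylpf and Actn3 were negative. Spinal cord markers summed to 0.279 to 0.485 in dt27J and to 10.7, 9.32 and 0.357 in WT 1, WT 2 and WT 3. Of these 9 markers 6 were tested and none passed, and Slc6a5, Mog and Opalin were too dim to be tested. The part of these tissues in the synthetase differences, that of Lars2 included, was not tested.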

How the data were processed

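RNA of 3 dt27J and 3 WT animals was measured on 1 array each. The deposited scanner files come from Agilent Feature Extraction 10.5.1.1, per the submitters' processing notes. Per the file headers, their processed signal is a linear intensity with background subtracted, and arrays are not normalized to each other. The authors' deposited table holds log2 values, centred on each probe's median, and served as an alternative. Its normalization is not stated in the sources. Its column medians lay between -0.0041 and 0.0053, its slopes against the scanner values between 0.94 and 0.99, so that its values run in the same direction as the signal.

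Control spots and outlier spots were left out, spots of a probe were averaged, and log2 signals were set to the 75th percentile of the array. Tested probes were those that cleared the background limit of the scanner software on all 3 arrays of either genotype. Accessions were matched without version to a RefSeq table of GRCm38.p6, which named 19381 of 26248 tested probes (73.8%); Mars is Mars1 there. The array annotation is from another build, so no gene coordinates are given, and promoters come from the RefSeq promoter table. The brightest tested probe stands for a gene. Genotype and date were fitted with limma 3.58.1 in R 4.3.3, with the interaction in a second fit; the number of arrays limits the precision (3 residual degrees of freedom, 3.74 from the prior). The script was tested on simulated data with equal noise for every probe, set below the median of these data. That is a check of the code and does not show how the fit performs here. All member probes, the genes of the lists, Dst and the neighbours of Lars2 could be named. Some results on genes of these lists are not reported here. Members and lists were chosen with earlier results of these data known. Alternatives were the date block, the replicate number as a block, scaling, background correction, the filter and leaving out arrays.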

Additional observations from a re-analysis of the deposited data

How the results depend on the processing

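Lars2 was between -5.68 and -4.21 under all 15 alternatives fixed for it, including -4.67 with the authors' values. The count of 838 probes past the threshold depended on the fit: it was 14 without the date block, 0 with no filter on dim probes (8485 at an unadjusted p under 0.05) and 6805 with the first date alone, and ran between 0 and 6805 when 1 array was left out. Higher and lower calls were 539 and 439 with quantile normalization, 392 and 325 with normexp, and 614 and 561 with the authors' values. The count of synthetase probes other than Lars2, 0 in the reported fit, was 1 with median scaling, with quantile normalization and with the filter on all arrays, 2 with the authors' values, 10 with the first date alone, and between 0 and 10 when 1 array was left out. The correlations of same-numbered arrays, as deviations from their group means, were 0.22, -0.15 and 0.06. The pair of dt27J 3 and WT 3, which share date, slide and scan, gave only 0.06. The check therefore cannot decide whether the numbers pair the animals. With the replicate block 2 probes passed in all and 0 synthetase probes. The second date alone, chosen after seeing the data, gave a cytosolic median of -0.0049. With Lars2 included, the mitochondrial minus cytosolic median was -0.33 on that date, against -0.15 in the reported fit. Over the 34 other genes, 0 to 7 changed sign under an alternative, 4 of them with median scaling. The causes were not tested. Dim probes, such as those of Rars and Mars2, limit what can be read from the smaller differences.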

Other observations

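The genes that neighbour Lars2 in the gene table were read on their own. Limd1, which encodes a LIM domain adaptor protein, was higher in dt27J ganglia. It had levels of 2.21, 2.19 and 2.06 in dt27J and 1.29, 1.19 and 0.80 in WT ganglia, a difference of 1.06 (SE 0.19, limma adjusted p = 0.0472). The groups did not overlap, and the second Limd1 probe gave 0.86 (adjusted p = 0.075). The call on the first probe was lost without the date block (adjusted p = 0.0643) and with the replicate block (0.113). It was also lost with no filter on dim probes (0.0933), and without dt27J 1 (0.188), dt27J 2 (0.104), WT 1 (0.248) and WT 2 (0.165), and over its alternatives the adjusted p ran between 0.019 and 0.248. Tmem158 differed by -0.37 and Sacm1l by 0.003, and neither passed, while Cdcp1 was too dim to be tested. None of the 3 tested neighbours was lower in dt27J ganglia past the threshold.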
